A study of Mus musculus with 2 samples.

Results

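The genes described here are 9 components of the Hedgehog signaling pathway (Shh, Boc, Cdon, Ptch1, Hhip, Smo, Gli1, Gli2 and Gli3), chosen by name among the 27998 genes counted in single-cell RNA sequencing of mouse somites. All 9 were found by symbol, and their levels were followed by stage in somitic cells gated by Pax1/Pax9, Pax3, Myf5 or Myog and in cells of the neural tube. Inter-limb somites of wild-type C57BL/6 embryos were dissected at E9.5 or at E11.5, pooled from 3 embryos per stage and dissociated with trypsin, and each pool gave 1 droplet library. By the labels the 2 groups differ in embryonic age, with no allele or agent in either. With 1 library per stage there are no replicates and no difference was tested, so each interval below covers counting error only and a difference between stages cannot be told apart from a difference between libraries.

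Hedgehog ligands bind Ptch1, which in their absence holds the membrane protein Smo inactive. Once Smo is released, the zinc finger factors of the Gli family act on target genes, with Gli2 mainly an activator, Gli3 mainly a repressor and Gli1 an activator that is itself a target. In the trunk, Shh from the notochord and floor plate patterns the ventral neural tube and induces sclerotome, the Pax1- and Pax9-expressing part of the somite that forms the vertebrae and ribs. The dorsal Pax3-expressing dermomyotome gives rise to the muscle progenitors.

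Ptch1 and Hhip are known targets whose proteins restrain the pathway, and both were lower in Pax1/Pax9 cells at the later stage, so the sequence before their start sites is shown here. In RefSeq on GRCm38.p6, 6 of the 9 genes were matched to a promoter entry. The 250 bases before the start site, from 5′ to 3′ on the gene's own strand, carry the core letters GGGTGG or their reverse complement CCACCC in capitals where they occur. The Ptch1 window (chr13:63565736-63565985, minus strand) lies inside the annotated Ptch1 gene without touching an exon, and the Hhip window (chr8:80058009-80058258, minus strand) lies upstream of the annotated gene.
Ptch1: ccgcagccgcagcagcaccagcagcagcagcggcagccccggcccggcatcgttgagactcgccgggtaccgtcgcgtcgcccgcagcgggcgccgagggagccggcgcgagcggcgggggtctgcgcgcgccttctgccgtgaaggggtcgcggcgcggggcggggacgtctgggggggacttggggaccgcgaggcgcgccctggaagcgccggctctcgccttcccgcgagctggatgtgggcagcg
Hhip: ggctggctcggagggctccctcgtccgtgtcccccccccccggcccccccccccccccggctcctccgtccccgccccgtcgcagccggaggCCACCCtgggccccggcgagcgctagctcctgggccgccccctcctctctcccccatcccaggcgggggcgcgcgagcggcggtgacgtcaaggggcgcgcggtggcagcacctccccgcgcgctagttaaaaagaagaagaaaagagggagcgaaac
The Hhip window held the core once, on the opposite strand with its first letter 158 bases before the start, and the Ptch1 window had no match. Such cores are common and were present in 28.1% of the 32851 promoter windows of this length when both strands were searched. The longer Gli consensus TGGGTGGTC, which contains the core, was found in 0.225% of these windows and in none of the 6 of these genes. A match or its lack in a window of 250 bases is a description of letters only.

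The E9.5 library held 10121 barcodes and the E11.5 library 10167, of which 9851 and 9595 with at least 200 and fewer than 6500 genes and under 15% mitochondrial unique molecular identifiers (UMIs, tags that count each captured transcript once) were kept. Median depths were 12462 and 12479 UMIs per cell, and 25 barcodes were kept in both libraries. Each somitic gate asked for at least 2 UMIs of its own genes, at most 1 of the 6 neural genes and at most 1 UMI of competing genes (Pax1/Pax9 and Myog for the Myf5 gate, Pax1/Pax9 alone for the Myog gate, so both may hold Pax3). Neural tube cells had Sox2 and at least 3 of 6 neural progenitor genes, with at most 1 UMI of Myog and at most 1 of Pax1 and Pax9 together. The gates left 39.5% of E9.5 and 53.2% of E11.5 cells unassigned. At E9.5 there were 1322 Pax1/Pax9, 891 Pax3, 131 Myf5, 25 Myog and 1735 neural tube cells, and at E11.5 there were 1593, 256, 339, 579 and 136. Levels are UMIs summed over a gate per 1000000 UMIs of that gate (UPM) with an exact 95% Poisson interval, and they are not scaled to transcript length, so no gene is ranked against another. A difference was counted as past 2-fold when it reached 1 on the log2 scale with at least 50 UMIs in both classes together. Intervals of ratios are exact and assume independent molecules.

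The gate names were checked against other markers. Among these 5 gates, sclerotome markers were highest in Pax1/Pax9 cells for 5 of 6 genes at either stage, and neural tube markers were highest in neural tube cells for 5 of 6. Myocyte markers were highest in Myog cells for 5 of 5. The Pax3 gate had the highest level for 4 of 6 dermomyotome markers at E9.5 and for 2 of 6 at E11.5. Early myotome markers were highest in Myf5 cells for 0 of 5 genes at E9.5 and 1 of 5 at E11.5, the others being higher in Myog or Pax3 cells. These cells are therefore called by their gates and not as a tissue.

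Free RNA in the suspension was gauged from erythroid cells, taken as cells that should lack these genes. Doublet calls covered 11.5% of E9.5 and 7.41% of E11.5 erythroid cells, beside 6.11% and 2.14% of all cells kept. The part of doublets in the erythroid levels was not tested. Ptch1 stood there at 14.9 UPM (95% interval 9.88 to 21.5) at E9.5 and 6.71 UPM (3.91 to 10.7) at E11.5, in cells whose totals were at least 10% globin, which lowers these levels. A Ptch1 UMI was found in 13.9% and 11.9% of erythroid cells, at median depths of 14734 and 17194 UMIs, against 12327 and 12106 UMIs in Pax1/Pax9 cells. For Gli1 the erythroid levels were 1.59 UPM (3 UMIs) and 0.789 UPM (2 UMIs). White blood cells of E11.5 had 12.5 UPM (7.65 to 19.4) of Ptch1 and no Gli1 UMI in 105 cells. A level that overlaps the erythroid interval of its stage is read below as background. That means only that it cannot be told apart from free RNA here.

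**Figure D1:**
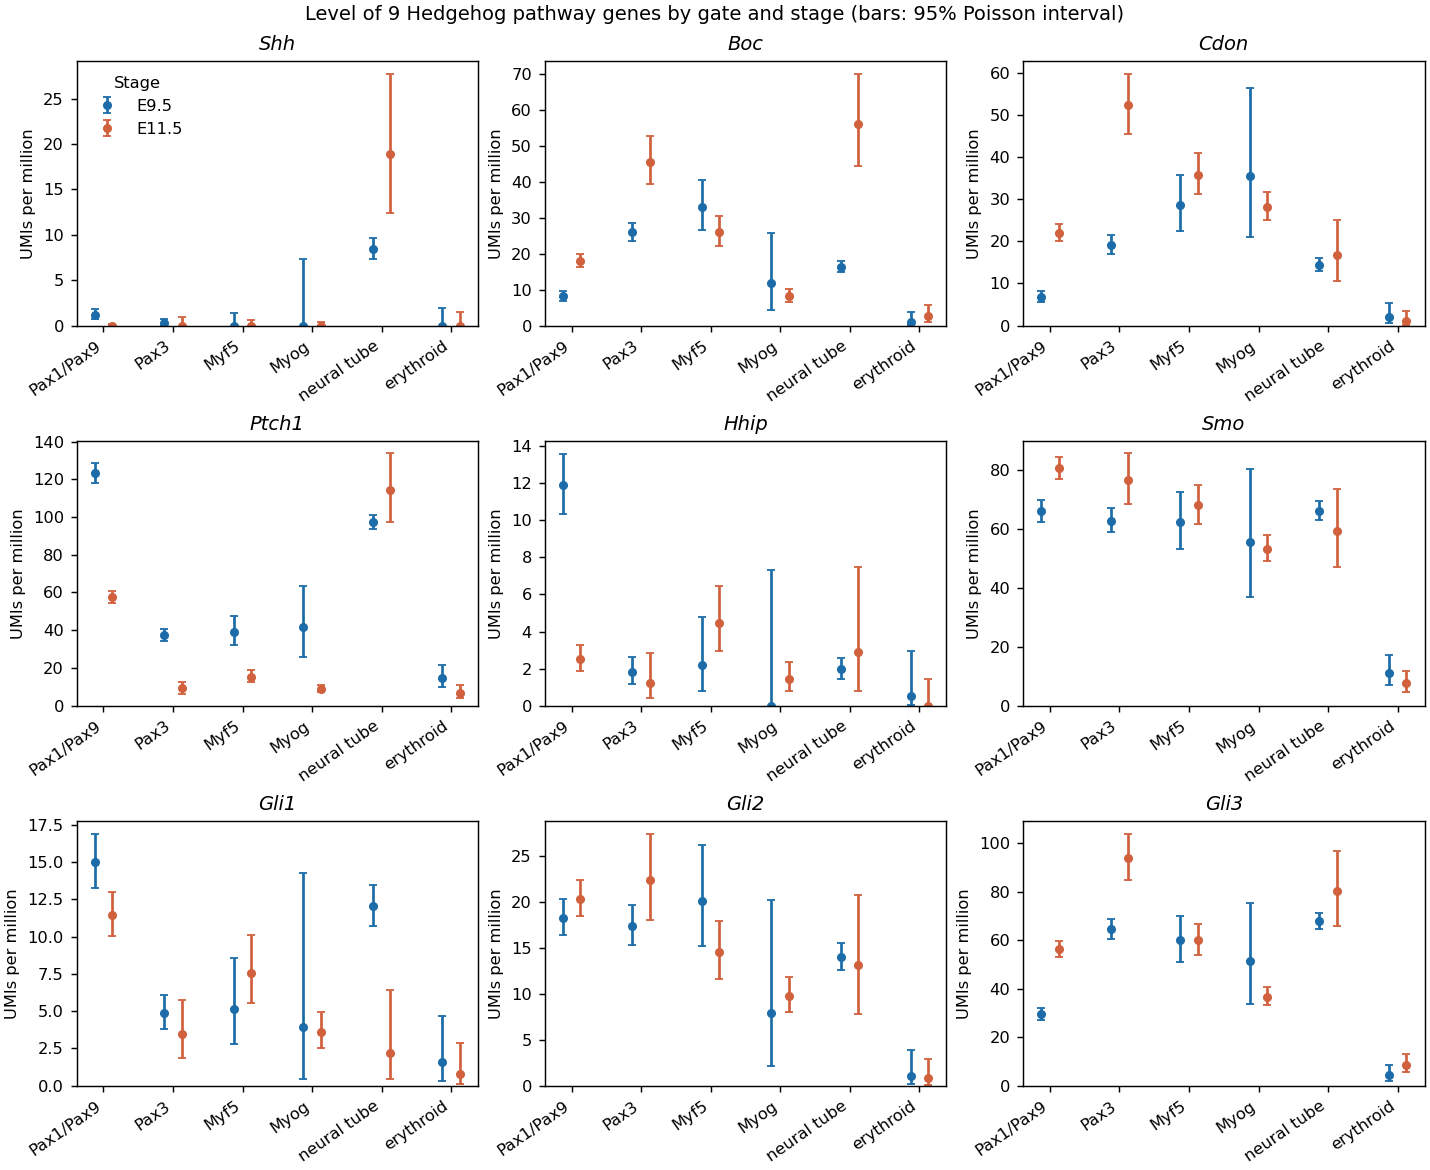
Level of each of the 9 genes in UMIs per 1000000 UMIs (linear axis from 0, a different scale in each panel) in the 5 gates and in erythroid cells as background, with points for the library of each stage and bars for the exact 95% Poisson interval. Ptch1 lies at 123 UPM in E9.5 and 57.6 UPM in E11.5 Pax1/Pax9 cells and near the erythroid points in E11.5 Pax3 and Myog cells, while Smo differs little among the 5 gates.

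The ligand Shh (ENSMUSG00000002633; chromosome 5, 28456815 to 28467256, minus strand, GRCm38) was found in few cells. At E9.5, 267 cells held its 1284 UMIs, and 152 cells with at least 3 UMIs held 87.7% of them. Of these 152 cells, 90.1% also had Foxa2, a factor of floor plate and notochord, and 86.2% had Sox2, a neural progenitor factor. The notochord factor T was found in 9.21% of them, against 0.637% of the 9584 cells with no Shh UMI. Most cells rich in Shh thus had Foxa2 and most had Sox2, and the notochord gate (5 cells, 77 UMIs) held 6.00% of Shh UMIs. The neural tube gate held 16.9% of Shh UMIs, the neuron gate 11.7%, the epithelial gate 7.2% and cells outside every gate 52.0%. Epcam, the gene of the epithelial gate, was found in 11.8% of the 152 cells. At E11.5 the total was 81 UMIs in 18 cells, of which 6 were neural tube cells with 26 UMIs.

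In the somitic gates Shh was at or near 0. Pax1/Pax9 cells had 21 UMIs in 4 cells at E9.5 and 0 in 1593 cells at E11.5, which by the limit of 3 counts allows a share of cells with a UMI of up to 0.188%. With so few earlier cells holding the UMIs, no fold is given. The earlier Pax3 cells held 5 UMIs and the later ones none, and no Shh UMI was found in Myf5 or Myog cells of either stage. Neural tube cells had 8.47 UPM (95% interval 7.38 to 9.68) at E9.5 and 18.9 UPM (12.4 to 27.8) at E11.5, a rise of 1.16 on the log2 scale (0.51 to 1.75). That rise rests on 6 cells of the later stage and came to 0.77 as a mean over cells, and Foxa2 cells made up 119 of 1735 and 4 of 136 cells of the gate.

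Between the stages, 8 of the 9 genes had enough UMIs in Pax1/Pax9 cells, and 2 rose and 2 fell past 2-fold, where 16.6% of the 11609 genes with enough UMIs rose and 3.83% fell. In Pax3 cells 1 of 7 rose and 1 fell, against 11.1% and 5.29% of all genes. In Myf5 cells none of 7 rose and 1 fell (9.76% and 3.81% of all genes), and in Myog cells none of 6 rose and 1 fell (15.6% and 5.79%). Neural tube cells had 2 of 9 higher and 1 lower, with 13.2% and 6.76% of all genes. The median log2 ratio of all genes was 0.20 in Pax1/Pax9 cells and 0.16 in neural tube cells, so a gene with no difference on this scale lay below the typical gene of those gates. Ptch1 was the gene past 2-fold lower in all 4 somitic gates, although in Myog cells the direction changed at equal depth.

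Boc and Cdon encode cell surface co-receptors that bind Hedgehog ligands and, as background, are also known from muscle progenitors. Boc (ENSMUSG00000022687; chromosome 16, 44485049 to 44558897, minus strand) was at 8.11 UPM (6.85 to 9.54) in E9.5 and 18.0 UPM (16.3 to 20.0) in E11.5 Pax1/Pax9 cells, a rise of 1.15 on the log2 scale (0.87 to 1.44) that was 0.95 after centring on the median of all genes. In neural tube cells it went from 16.3 UPM (14.8 to 18.0) to 56.1 UPM (44.3 to 70.1), a rise of 1.78 (1.41 to 2.14). Pax3 cells had 26.0 UPM and 45.7 UPM, a log2 ratio of 0.81 (0.55 to 1.07) that stayed within 2-fold. In Myf5 cells Boc stood at 32.9 UPM (26.5 to 40.5) and 26.1 UPM (22.2 to 30.5), intervals that overlap, and in Myog cells at 11.9 UPM (6 UMIs) and 8.25 UPM.

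Cdon (ENSMUSG00000038119; chromosome 9, 35421128 to 35507652, plus strand) rose in the Pax1/Pax9 and Pax3 gates. Pax1/Pax9 cells had 6.83 UPM (5.68 to 8.15) at E9.5 and 22.0 UPM (20.0 to 24.1) at E11.5, a log2 ratio of 1.68 (1.39 to 1.98). Pax3 cells had 19.1 UPM (17.0 to 21.5) and 52.3 UPM (45.5 to 59.8), a log2 ratio of 1.45 (1.19 to 1.71). Marker sums of the Pax3 gate differed too, with 5 early myotome markers summing to 63.3 UPM and 1843 UPM and 6 dermomyotome markers to 635 UPM and 249 UPM, all of them detected. The early myotome sum was also higher at E11.5 in every other gate with cells at both stages, as in Hand1/Hand2 (44.0 UPM and 476 UPM) and epithelial cells (60.7 UPM and 419 UPM). A single gene can carry it, as Itm2a made up 2503 UPM of the 2695 UPM in E11.5 Myf5 cells. The dermomyotome markers did not move together, and most of the fall in their sum was Meox1, at 496 UPM and 88.9 UPM. Lbx1 (26.8 UPM and 3.44 UPM) and Sim1 (21.8 UPM and 16.7 UPM) were also lower at E11.5. Dmrt2 (83.7 UPM and 93.5 UPM), Pax7 (5.73 UPM and 39.5 UPM) and Alx4 (0.999 UPM and 7.12 UPM) were higher. The part of these markers in the ratios of this gate was not tested. The share of Pax3 cells with a Cdon UMI was 26.3% and 53.5%, and at 5000 UMIs per cell it was 10.3% and 20.2%, with 3.28% and 2.22% of erythroid cells before thinning. In Myf5 cells the levels of Cdon were 28.5 UPM and 35.8 UPM, in Myog cells 35.6 UPM and 28.2 UPM and in neural tube cells 14.4 UPM and 16.8 UPM, each pair with a ratio interval that included no difference.

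Ptch1 (ENSMUSG00000021466; chromosome 13, 63508328 to 63573598, minus strand), the ligand receptor and a target of the pathway, was detected in 60.8% of E9.5 and 40.3% of E11.5 Pax1/Pax9 cells. Its level there was 123 UPM (118 to 129) and 57.6 UPM (54.4 to 61.0), a log2 ratio of -1.10 (-1.2 to -1.0). The size lay close to the 2-fold limit, at -0.98 with cells thinned to 5000 UMIs and -0.91 as a mean over cells. Even at E11.5 this level was far above that of erythroid and white blood cells.

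In the other somitic gates the later level of Ptch1 was near or in the range of the background. Pax3 cells went from 37.4 UPM (34.3 to 40.6) to 9.08 UPM (6.40 to 12.5), a log2 ratio of -2.04 (-2.56 to -1.56). Myf5 cells went from 39.2 UPM (32.1 to 47.3) to 15.3 UPM (12.4 to 18.8), a log2 ratio of -1.35 (-1.77 to -0.94). At 5000 UMIs per cell the share of cells with Ptch1 was 16.6% and 6.75% in the Pax3 gate and 19.4% and 6.87% in the Myf5 gate, beside 4.42% and 2.31% in erythroid cells and 8.64% in E11.5 white blood cells. The E11.5 levels of Pax3 and Myog cells overlapped the erythroid interval and are read as background. That of Myf5 cells lay above the erythroid interval. It overlapped the white blood interval, which rests on 20 UMIs, so it is not read either way. In Myf5 over Pax3 cells at E11.5 the log2 ratio of Ptch1 was 0.76 (0.19 to 1.35), within 2-fold. Over all cells kept, Ptch1 stood at 75.6 UPM and 25.2 UPM, and the erythroid level moved down with it.

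The Myog gate had 41.5 UPM (25.7 to 63.5) of Ptch1 at E9.5 and 8.81 UPM (7.11 to 10.8) at E11.5, a log2 ratio of -2.24 (-2.93 to -1.48). This rests on 21 UMIs in 9 of 25 cells, and at 5000 UMIs per cell the ratio changed sign to 0.07, with shares of 5.00% and 5.08%. No direction is read for Ptch1 in this gate. In neural tube cells Ptch1 was at 97.3 UPM (93.6 to 101) at E9.5 and 114 UPM (97.2 to 134) at E11.5, a log2 ratio of 0.23 (-0.01 to 0.47).

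**Figure D2:**
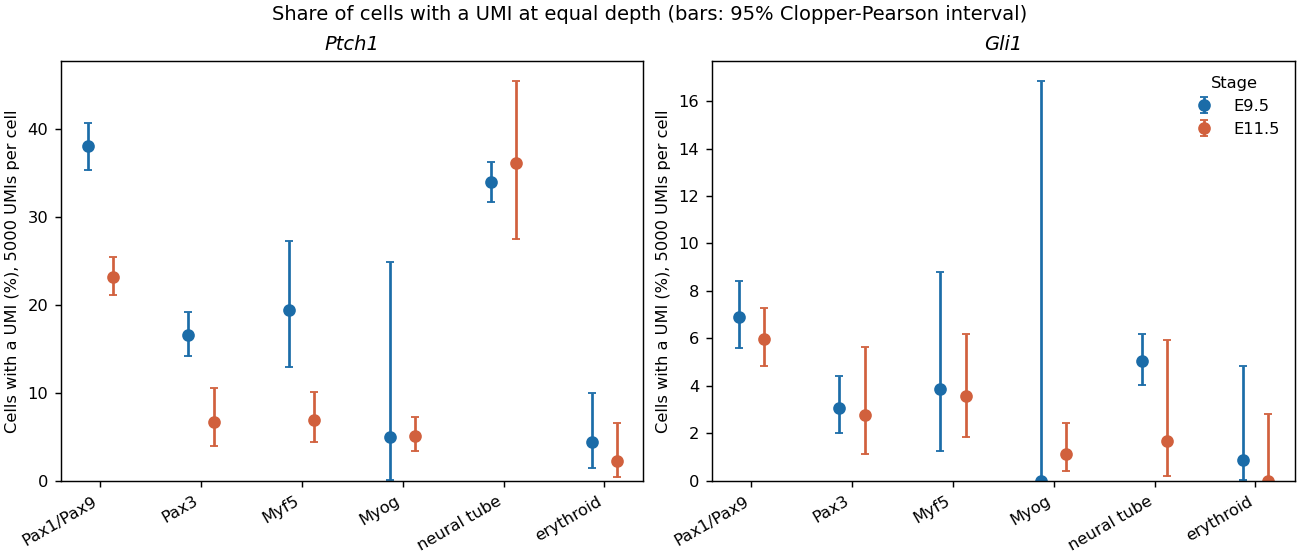
Share of cells (%, linear axis from 0) with at least 1 UMI of Ptch1 (left) or Gli1 (right) after each cell was thinned to 5000 UMIs, in the 5 gates and erythroid cells, with points for each stage's library and bars for the exact 95% Clopper-Pearson interval. Ptch1 was found in 38.0% of E9.5 and 23.2% of E11.5 Pax1/Pax9 cells, and the E11.5 Pax3, Myf5 and Myog cells lie between 5.08% and 6.87%.

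Hhip (ENSMUSG00000064325; chromosome 8, 79965851 to 80058006, minus strand), which encodes a membrane protein that binds and sequesters Hedgehog ligands, was highest in E9.5 Pax1/Pax9 cells among the 5 gates. Its level there was 11.9 UPM (10.4 to 13.6) and fell to 2.49 UPM (1.86 to 3.26) at E11.5, a log2 ratio of -2.26 (-2.72 to -1.81), with a UMI in 13.2% and 3.01% of cells and in 1 and 0 erythroid cells. In Pax3 cells Hhip had 27 and 5 UMIs, in Myf5 cells 6 and 27, in Myog cells 0 and 15 and in neural tube cells 50 and 4. All of those levels lay between 0 and 4.45 UPM, and the highest was that of E11.5 Myf5 cells (2.94 to 6.48), the only one of them above the erythroid interval of its stage.

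Smo (ENSMUSG00000001761; chromosome 6, 29735503 to 29761365, plus strand), the signal transducer that Ptch1 holds in check, had the narrowest range of levels by fold. Over the 5 gates and 2 stages it lay between 53.2 UPM in E11.5 Myog cells and 80.5 UPM in E11.5 Pax1/Pax9 cells. The largest stage difference of Smo was in Pax1/Pax9 cells, from 65.8 UPM (62.1 to 69.6) to 80.5 UPM (76.7 to 84.4), a log2 ratio of 0.29 (0.18 to 0.40). Erythroid cells had 11.2 UPM and 7.50 UPM of Smo, below every one of the 5 gates. In the others Smo was at 62.7 UPM and 76.6 UPM (Pax3), 62.2 UPM and 68.0 UPM (Myf5), 55.4 UPM and 53.2 UPM (Myog), and 66.0 UPM and 59.0 UPM (neural tube).

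Gli1 (ENSMUSG00000025407; chromosome 10, 127329882 to 127341974, minus strand) is a target often used as a readout of the pathway, and its stage difference in Pax1/Pax9 cells stayed within 2-fold. Its level was 15.0 UPM (13.3 to 16.9) at E9.5 and 11.4 UPM (10.0 to 13.0) at E11.5, a log2 ratio of -0.39 (-0.65 to -0.13), and the shares of cells at 5000 UMIs were 6.90% and 5.97%, with 0.885% and 0 in erythroid cells. In Pax3 cells Gli1 was at 4.86 UPM (3.81 to 6.11) and 3.44 UPM (1.88 to 5.77), and in Myf5 cells at 5.12 UPM (2.80 to 8.60) and 7.59 UPM (5.56 to 10.1). Both ratio intervals included no difference, and of these levels that of E11.5 Myf5 cells alone lay above the erythroid interval of its stage. Myog cells had 2 and 38 Gli1 UMIs, or 3.96 UPM and 3.60 UPM. Neural tube cells had 308 UMIs of Gli1 at E9.5, or 12.02 UPM (10.7 to 13.4), and 3 UMIs at E11.5, or 2.19 UPM (0.45 to 6.39), a log2 ratio of -2.46 (-4.74 to -0.90). The later level overlapped the erythroid one, and the Foxa2, Olig2 and Nkx6-1 domains held 4, 1 and 14 of the 136 cells of the later gate, against 119, 319 and 204 of 1735.

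Gli2 (ENSMUSG00000048402; chromosome 1, 118834132 to 119053619, minus strand) changed past 2-fold between stages in none of the 5 gates. Its levels ran from 7.91 UPM (4 UMIs, E9.5 Myog cells) to 22.3 UPM (E11.5 Pax3 cells). Gli2 stood at 18.3 UPM and 20.3 UPM in Pax1/Pax9, 17.4 UPM and 22.3 UPM in Pax3, 20.1 UPM and 14.5 UPM in Myf5, and 14.1 UPM and 13.1 UPM in neural tube cells. In E11.5 Myog cells it was at 9.76 UPM. Gli3 (ENSMUSG00000021318; chromosome 13, 15463235 to 15730026, plus strand) was at 29.5 UPM (27.0 to 32.1) and 56.4 UPM (53.2 to 59.7) in Pax1/Pax9 cells, a log2 ratio of 0.94 (0.79 to 1.09), just under the limit and 1.05 at 5000 UMIs per cell. In Pax3 cells it was at 64.4 UPM (60.4 to 68.6) and 94.0 UPM (84.8 to 104), a log2 ratio of 0.55 (0.37 to 0.72). Gli3 stayed level in Myf5 cells, with 60.0 UPM at either stage, and was at 51.4 UPM and 36.7 UPM in Myog and 67.8 UPM and 80.2 UPM in neural tube cells.

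**Figure D3:**
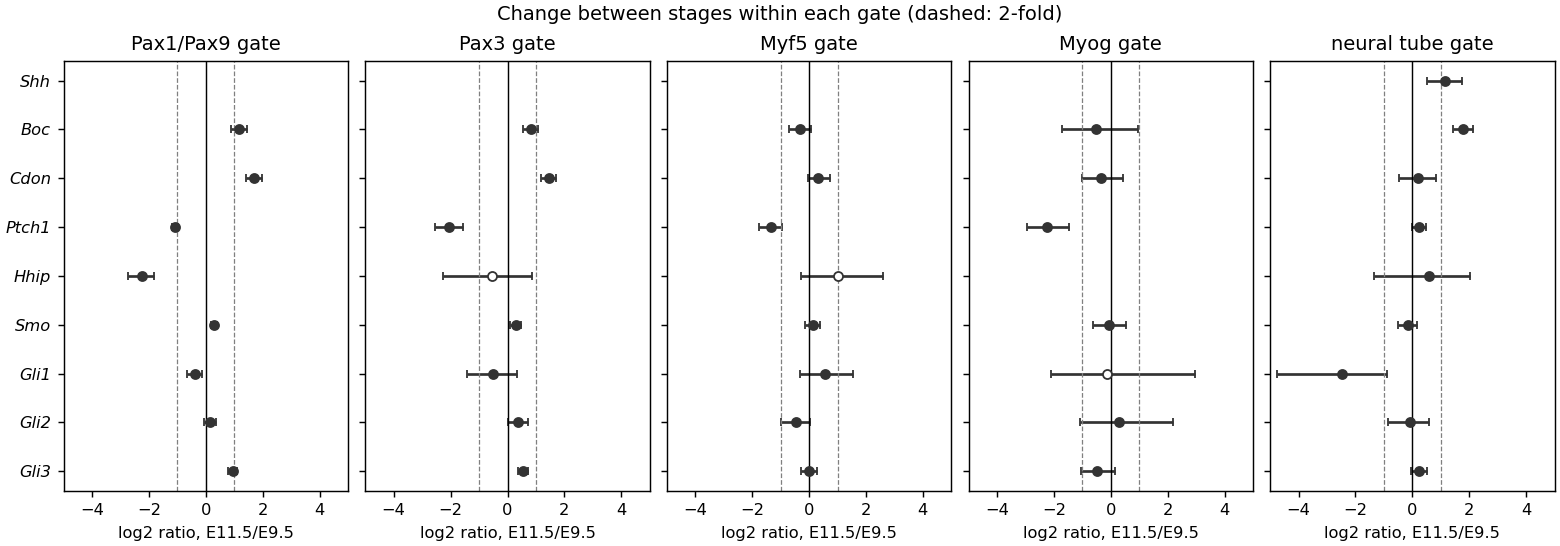
Log2 ratio of E11.5 over E9.5 for the 9 genes in each of the 5 gates, with exact 95% intervals for counting error, dashed lines at 2-fold and open points where both stages together had under 50 UMIs; a gene at 0 UMIs in a stage has no point. Ptch1 lies left of -1 in the 4 somitic gates (-1.10, -2.04, -1.35 and -2.24, the last changing sign at 5000 UMIs per cell) and at 0.23 in neural tube cells.

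Set against Pax3 cells of the same library, Pax1/Pax9 cells had more of the induced genes and less of the co-receptors and Gli3. At E9.5, 3 of 8 genes were past 2-fold higher and 3 past 2-fold lower, where 2.32% and 2.28% of the 10768 genes with enough UMIs were. The log2 ratios of the higher genes were 1.72 (1.59 to 1.86) for Ptch1, 2.73 (2.14 to 3.36) for Hhip and 1.63 (1.25 to 2.02) for Gli1. The Pax3 levels behind those of Hhip, 1.80 UPM (1.19 to 2.62), and Gli1, 4.86 UPM (3.81 to 6.11), overlapped the erythroid intervals. Those intervals rest on 1 and 3 UMIs, so the overlap cannot show that Pax3 cells lack these genes. A Gli1 UMI was found in 7.52% of Pax3 cells (5.88 to 9.45) and 2.46% of erythroid cells (0.51 to 7.02). Median depths were 14994 and 14734 UMIs. The lower genes were Boc at -1.68 (-1.96 to -1.40), Cdon at -1.48 (-1.80 to -1.17) and Gli3 at -1.13 (-1.28 to -0.97). Smo, at 0.07 (-0.06 to 0.19), and Gli2, at 0.07 (-0.17 to 0.31), had intervals that included no difference.

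At E11.5, in another pool of embryos, 3 of 8 genes were past 2-fold higher in Pax1/Pax9 cells and 2 lower (5.36% and 2.48% of all genes). Ptch1 had a log2 ratio of 2.67 (2.19 to 3.18), with the Pax3 side at background, and Gli1 one of 1.73 (0.96 to 2.63) from 239 and 14 UMIs, also against a Pax3 level in the erythroid range. The ratio of Hhip, 1.02 (-0.29 to 2.70), rested on 52 and 5 UMIs and did not hold at equal depth, where it was 0.25. Boc was lower at -1.34 (-1.60 to -1.08) and Cdon at -1.25 (-1.49 to -1.01), and Gli3 stood at -0.74 (-0.91 to -0.57), within 2-fold. Gates of a stage share the library, and Pax1 and Pax9 are themselves known to respond to Hedgehog signals.

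**Figure D4:**
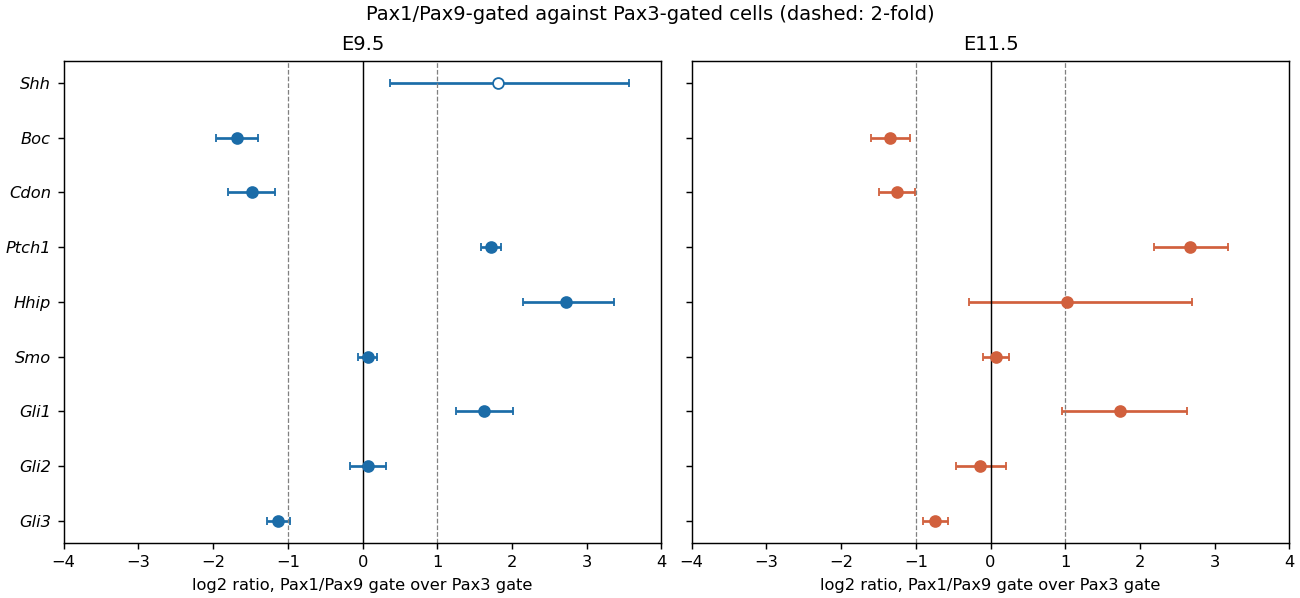
Log2 ratio of the Pax1/Pax9 gate over the Pax3 gate for the 9 genes at E9.5 (left) and E11.5 (right), with exact 95% intervals, dashed lines at 2-fold and an open point under 50 UMIs; Shh had no UMI in either gate at E11.5 and has no point there. Ptch1, Hhip and Gli1 lie to the right and Boc, Cdon and Gli3 to the left at both stages, with the E11.5 interval of Hhip spanning 0.

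The Myf5 and Myog gates were also set against Pax3 cells. At E9.5 none of 7 genes was past 2-fold in Myf5 cells (0.667% of all genes were higher and 1.37% lower), and at E11.5 Gli1 alone of 7 was, at 1.14 (0.25 to 2.12) with 46 and 14 UMIs, where 1.06% of all genes were higher and 1.75% lower. At 5000 UMIs per cell that ratio of Gli1 was 0.37. Myog cells of E11.5 had 3 of 7 genes past 2-fold lower and none higher, against 7.52% and 8.14% of all genes, with a median log2 ratio of -0.15 over all genes. These were Boc, with 8.25 UPM (6.60 to 10.2) and a log2 ratio of -2.47 (-2.85 to -2.09), Gli3 at -1.36 (-1.57 to -1.15) and Gli2 at -1.19 (-1.62 to -0.77). Cdon, with 28.2 UPM, stayed within 2-fold at -0.89 (-1.15 to -0.63). In a gate taken at 1 UMI the ratio of Gli2 was -0.77. At E9.5 the 25 Myog cells had 2 of 7 lower (Boc, 6 UMIs, and Gli2, 4 UMIs) and none higher, with 10.3% and 5.73% of all genes, and both intervals included no difference.

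Neural tube cells over Pax3 cells had 3 of 9 genes higher and none lower at E9.5 (6.69% and 5.2% of all genes). Beside Shh at 4.67 (3.42 to 6.31), these were Ptch1 at 1.38 (1.25 to 1.52) and Gli1 at 1.31 (0.93 to 1.69). The Pax3 level of Gli1 overlapped the erythroid interval, and the Gli1 ratio was 0.72 with equal depth. At E11.5, 1 of 6 was higher and 1 lower, beside 6.59% and 7.26% of all genes. Ptch1 was higher at 3.65 (3.13 to 4.21), with the Pax3 side at background, and Cdon lower at -1.64 (-2.33 to -1.02). Shh had 26 UMIs against 0, and as these lay in 6 cells no fold is given.

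The neural tube gate of E9.5 was divided by the factors that mark its domains from ventral to dorsal. Foxa2 marked 119 cells, Nkx2-2 7, Olig2 319, Nkx6-1 204 and Pax3 or Pax7 419, each cell entering the first domain it met, and 667 cells met none. These factors are themselves known to respond to Shh. Ptch1 was at 228 UPM (206 to 250) in Foxa2, 178 UPM (166 to 191) in Olig2, 118 UPM (107 to 131) in Nkx6-1, 64.7 UPM (59.5 to 70.2) in the remaining and 44.6 UPM (39.9 to 49.7) in Pax3/Pax7 cells. None of these neighbouring intervals overlapped, and the level stepped down in the order given.

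Gli1 had another order. It was highest in Olig2 cells at 18.6 UPM (14.8 to 23.1) and Nkx6-1 cells at 15.2 UPM (11.1 to 20.2), whose intervals overlap, and stood at 12.5 UPM (10.2 to 15.0) in the remaining, 10.3 UPM (6.20 to 16.1) in Foxa2 and 6.20 UPM (4.54 to 8.27) in Pax3/Pax7 cells. Gli3 ran opposite to Ptch1, from 32.0 UPM (24.3 to 41.2) in Foxa2 through 42.1 UPM and 53.9 UPM in Olig2 and Nkx6-1 to 99.1 UPM (92.0 to 106) in Pax3/Pax7 cells. Boc was at 28.8 UPM (25.1 to 33.0) in Pax3/Pax7 cells and between 5.91 UPM and 7.59 UPM in the 3 ventral domains, whose intervals overlap. Shh was at 105 UPM (90.9 to 121) in Foxa2 cells, with 194 of the 217 Shh UMIs of the gate.

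Counted against the Pax3/Pax7 domain, 2 of 8 genes were past 2-fold higher and 3 lower in the Foxa2 domain (2.05% and 2.13% of all genes), and 2 of 7 higher and 3 lower in the Olig2 domain (1.17% and 2.14%). In the Nkx6-1 domain 2 of 7 were higher and 2 lower, where 0.822% and 1.41% of all genes were. The log2 ratio of Ptch1 was 2.35 (2.14 to 2.56), 2.00 (1.81 to 2.19) and 1.41 (1.19 to 1.63) in the Foxa2, Olig2 and Nkx6-1 domains. Gli1 had 0.73 (-0.12 to 1.53), 1.59 (1.05 to 2.14) and 1.29 (0.67 to 1.91), the last at 0.83 with equal depth. The Pax3/Pax7 level of Gli1 behind these, 6.20 UPM (4.54 to 8.27), overlapped the erythroid interval (0.329 to 4.66). Gli3 had -1.63 (-2.04 to -1.25), -1.24 (-1.48 to -1.0) and -0.88 (-1.13 to -0.63). Boc was lower in all 3, at -1.93 (-2.82 to -1.15), -2.29 (-2.93 to -1.70) and -1.96 (-2.65 to -1.34). Cdon was past 2-fold lower in Olig2 cells at -1.99 (-2.61 to -1.41) and Nkx6-1 cells at -1.53 (-2.17 to -0.95), and Gli2 in Foxa2 cells at -1.44 (-2.48 to -0.55). The Smo ratios were 0.17, 0.05 and 0.06. Foxa2 against Olig2 cells, with 2 of 7 genes higher and none lower (1.56% and 0.653% of all genes), differed past 2-fold in Shh at 6.85 (5.47 to 8.74) and Cdon at 1.15 (0.32 to 1.97).

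**Figure D5:**
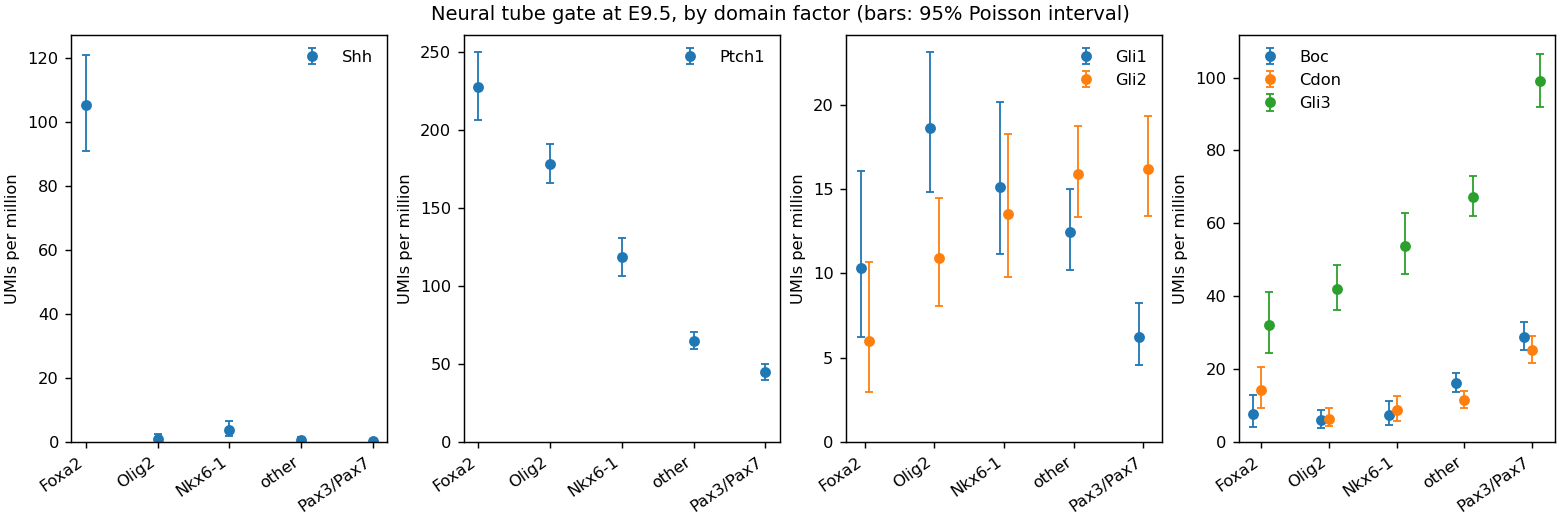
Levels in UMIs per 1000000 UMIs (linear axes from 0, a different scale in each panel) of Shh, Ptch1, Gli1 with Gli2, and Boc with Cdon and Gli3 in E9.5 neural tube cells divided by domain factor, with exact 95% Poisson intervals from 1 library; the domain with 7 Nkx2-2 cells is not shown. Ptch1 steps down from 228 to 44.6 UPM and Gli3 up from 32.0 to 99.1 UPM between Foxa2 and Pax3/Pax7 cells, while Gli1 is highest in Olig2 cells.

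The domains differed in number between the stages, which bears on the comparison of whole neural tube gates. At E11.5 the Foxa2, Olig2 and Nkx6-1 domains held 4, 1 and 14 of 136 cells, and Pax3/Pax7 held 60. Within the Pax3/Pax7 domain, with 1 of 6 genes past 2-fold higher and none lower (8.76% and 6.8% of all genes), Boc rose from 28.8 UPM to 72.0 UPM (54.1 to 94.0), a log2 ratio of 1.32 (0.86 to 1.76). Ptch1 was at 44.6 UPM and 80.0 UPM (61.1 to 103), a log2 ratio of 0.84 (0.42 to 1.24), and Gli1 had 46 UMIs and 1 UMI. The other domains were too small at E11.5 to compare.

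Within the Pax1/Pax9 gate the cells were split by the gene that brought them in. At E9.5 none of 8 genes differed past 2-fold between 840 cells with Pax1 alone and 38 with Pax9 alone (6.03% of all genes were higher and 3.88% lower). At E11.5, with 744 and 149 cells, Cdon was higher with Pax1 alone, at 35.9 UPM against 11.6 UPM and a log2 ratio of 1.63 (1.01 to 2.32), as 1 of 7 genes (3.14% of all genes higher, 1.91% lower). Ptch1 was at 34.4 UPM against 62.2 UPM there, a log2 ratio of -0.86 (-1.16 to -0.54) within 2-fold.

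The Pax3 gate of E9.5 was split by Lbx1, a factor of migrating muscle progenitors, into 129 cells with and 762 without it. Gli1 had 2.08 UPM (0.675 to 4.85; 5 UMIs) with Lbx1 and 5.39 UPM (4.19 to 6.84) without it, a log2 ratio of -1.37 (-3.04 to -0.08), and was the 1 of 7 genes past 2-fold lower, with none higher (2.73% and 1.03% of all genes). Both levels overlapped the erythroid interval of Gli1, so no direction is read. By Pax7, a factor of later muscle progenitors, none of 7 genes at E9.5 (0.8% of all genes higher, 2.63% lower) and none of 5 at E11.5 (0.806% higher, 1.52% lower) was past 2-fold.

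A list of 26 other pathway genes was counted in the same comparisons. Between stages in Pax1/Pax9 cells 6 of the 22 with enough UMIs rose and none fell (16.6% and 3.83% of all genes), with a median log2 ratio of 0.49 beside 0.20 for all genes. The largest were Scube3 and Scube1, of a family that helps release the ligands, at 2.85 (2.37 to 3.37) and 2.03 (1.69 to 2.38), the co-receptor Gas1 at 1.72 (1.65 to 1.79) from 105 UPM to 346 UPM, and the cilium gene Evc at 1.18 (0.80 to 1.57). In Pax3 cells 4 of 20 rose and none fell (11.1% and 5.29% of all genes), among them Gas1 at 1.18 (1.11 to 1.25). Gas1 thus rose in the same 2 gates as Cdon. Pax1/Pax9 over Pax3 cells at E9.5 had 3 of 21 lower, beside 2.28% of all genes. These were Scube3 at -2.67 (-3.20 to -2.17), Gas1 at -1.50 (-1.58 to -1.42) and Scube1 at -1.07 (-1.47 to -0.68), with a list median of 0.05. At E11.5 Scube1 was higher at 1.46 (0.91 to 2.05) and Disp1, which helps release the ligands from the cell, was the 1 of 22 lower, at -1.18 (-1.64 to -0.70), where 5.36% of all genes were higher and 2.48% lower.

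A second list held genes known to respond to Hedgehog signals, not all of them from somites or neural tube. Pax1/Pax9 over Pax3 cells had 7 of 14 past 2-fold higher and none lower at E9.5 (2.32% and 2.28% of all genes), with a median log2 ratio of 0.93 against -0.0044 for all genes. At E11.5, 10 of 14 were higher and none lower (5.36% and 2.48%), with a median of 2.50 against 0.09. Foxf1, Foxf2 and Nkx6-1 had no UMI in E11.5 Pax3 cells and count as higher there. The 4 largest at E9.5 were the forkhead genes Foxf1 at 3.89 (2.87 to 5.13) and Foxf2 at 2.78 (1.72 to 4.05), the chondrogenic factor Sox9 at 3.20 (3.04 to 3.36) and Hsd11b2 at 2.28 (2.08 to 2.49). Pax1 and Pax9 were left out of the list here, and Sox9 and Foxc2 are also among the sclerotome markers used above.

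Between stages in Pax1/Pax9 cells the responsive genes split. Foxf1, from 7.89 UPM to 44.8 UPM, rose by 2.51 on the log2 scale (2.25 to 2.77) and Foxf2 by 2.49 (2.11 to 2.88), while Foxc2 fell from 134 UPM to 62.4 UPM, a log2 ratio of -1.10 (-1.2 to -1.0). In all, 5 rose and 2 fell of 14 (16.6% and 3.83% of all genes), with a median of 0.25. A list of 5 lateral plate genes that includes Foxf1 summed to 13.3 UPM at E9.5, with Gata4 at 0, and 172 UPM at E11.5 in the same cells, and its part in these ratios was not tested. Pax3 cells had 2 of 9 higher and 4 lower (11.1% and 5.29% of all genes), with Foxc2 at -4.34 (-5.12 to -3.65) and Foxd1 at -2.82 (-3.17 to -2.49). In neural tube cells 2 of 14 rose and 5 fell (13.2% and 6.76% of all genes), among them Sox9 at 4.39 (4.22 to 4.55) and Olig2 at -3.99 (-5.87 to -2.63), the latter together with the lower number of Olig2 cells.

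Both lists were also counted in other comparisons, some of which are given here. The responsive list had 6 of 14 higher and 2 lower in neural tube over Pax3 cells at E9.5 (6.69% and 5.2% of all genes). In Myog over Pax3 cells at E11.5 it had 0 of 8 higher and 4 lower (8.14% and 7.52%). Those lower were Hsd11b2, Sox9 and the cyclin genes Ccnd2 and Ccnd1. In Olig2 over Pax3/Pax7 cells it had 5 of 10 higher and 1 lower (1.17% and 2.14%). Between stages, the pathway list had 2 of 15 genes higher and 1 lower in Myf5 cells, where 9.76% and 3.81% of all genes were. It had 0 of 14 higher and 1 lower in Myog cells, beside 15.6% and 5.79% of all genes, and 1 of 24 higher and 1 lower in neural tube cells, beside 13.2% and 6.76%. Against the same shares, the responsive list had 1 of 9 higher and 4 lower in Myf5 cells and 0 of 8 higher and 4 lower in Myog cells. The lower genes were Foxc2, Foxd1, Cdk6 and Ccnd1 in Myf5 cells and Foxd1, Ccnd1, Cdk6 and Ccnd2 in Myog cells. Cdk6 and the cyclin genes also belong to the general cell cycle, so these counts are not read as a Hedgehog response. Neural tube over Pax3 cells at E9.5 had 3 of 24 pathway genes past 2-fold higher (6.69% of all genes), among them Scube2 at 8.33 (6.47 to 11.4) with 1096 UMIs against 2, and Lrp2, which encodes an endocytic receptor that binds Shh, at 3.77 (2.91 to 4.79). Olig2 over Pax3/Pax7 cells had 3 of 20 pathway genes past 2-fold lower (2.14% of all genes), Scube2 at -1.83 (-2.24 to -1.44), Gas1 at -1.70 (-1.86 to -1.54) and Evc at -1.50 (-2.35 to -0.73).

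Beyond the gates, 154 E9.5 cells with Foxa2 and Sox2 met no gate and were looked at after the values above were seen. They had 301 UPM (276 to 327) of Shh and 272 UPM (248 to 297) of Ptch1, while Gli1 stood at 4.43 UPM (1.91 to 8.72), Gli3 at 27.1 UPM (20.1 to 35.8) and Boc at 3.87 UPM (1.56 to 7.98). This Gli1 level overlapped the erythroid interval. Against Pax3/Pax7 neural tube cells, 2 of 8 genes were past 2-fold higher and 3 lower, where 4.36% and 3.78% of all genes were. The 2 higher were Shh and Ptch1, and high Shh was built into the choice of cells by Foxa2 and Sox2. Of the responsive genes 5 of 10 were higher and 2 lower, the largest being Pax1, Hsd11b2 and Foxc2. Pax1 stood at 26.6 UPM against 0.943 UPM and Foxc2 at 28.8 UPM against 5.93 UPM. The neural tube gate allowed at most 1 UMI of Pax1 and Pax9 together, and cells above that limit were kept out of it. The Pax1 difference is thus partly set by the gates and is not read, although Pax1 is counted among the higher genes. Whether these are mixed cells was not tested. Doublet calls covered 12.3% of these cells.

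The genes whose levels were most like those of Gli1 and Ptch1 were sought over 24 combinations of class and stage with at least 50 cells, among 11648 genes with at least 500 UMIs. For Gli1 they were 2610318N02Rik (Pearson r 0.82 on log2(UPM + 1)), Ahcy (0.82), Tfap4 (0.80), Fndc3c1 (0.79) and Chek1 (0.78). Among the 9 genes, Hhip was at 0.75, Gli2 at 0.64, Smo at 0.63 and Ptch1 at 0.62. For Ptch1 they were Sall1 (0.86), Lama1 (0.84), Hoxb4 (0.84), Hoxb5os (0.83) and Igdcc3 (0.82), with Shh at 0.75 and Hhip at 0.67. These values describe classes that share 2 libraries.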

How the data were processed

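Single-cell RNA sequencing of pooled inter-limb somites was analysed from the deposited UMI counts per gene and barcode. Per the labels and the submitters' processing notes, the authors made these counts with Cell Ranger 3.0.1 on mm10, for barcodes called as cells, without normalization. Cells with at least 200 and fewer than 6500 genes and under 15% mitochondrial UMIs were kept. Gates used raw UMIs, each cell entering the first it met: erythroid, white blood, endothelial, neuron, neural crest, neural tube (Sox2 with at least 3 of 6 neural progenitor genes), notochord, epithelial, Myog, Myf5, Pax1/Pax9, Pax3 and Hand1/Hand2. Scrublet in scanpy 1.11.5, with an expected doublet rate of 8%, called 6.30% of E9.5 and 2.33% of E11.5 barcodes, which were removed only in an alternative. Among the 5 gates it called 0 to 8.82% of cells.

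UMIs were summed per gate and divided by all UMIs of the gate. Poisson, ratio and Clopper-Pearson intervals were exact at 95%, computed with scipy 1.17.1, numpy 2.4.6 and pandas 2.3.3 under Python 3.11.15, and the ratio was tested on simulated data. Cells are not replicates and no test was made. Ratios were counted over all genes with at least 50 UMIs in the compared classes. Thinning to 5000 UMIs left out 537 and 727 shallower cells. Median depth per gate ran from 9445.5 to 22387 UMIs. Positions of genes came from GENCODE M21 (GRCm38), and promoter letters from RefSeq. Plots used matplotlib 3.10.9.

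All 9 genes are described in the 5 gates compared here, and the other gates only in part. Of the 26 other pathway genes and the 21 responsive genes, at most 4 a comparison are named, those with the largest differences past 2-fold. Some items are not reported here. The 5 genes most like Gli1 and Ptch1 are named by Pearson r of log2(UPM + 1). The genes, lists and gates were chosen with earlier results of these data known. The alternatives were other gate thresholds, equal depth, doublet removal, cell filters, a mean over cells and other scalings.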

Additional observations from a re-analysis of the deposited data

How the results depend on the processing

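The 118 ratios were recomputed under 10 settings. Of 1172 values, 1095 kept both their direction and their side of 2-fold, 63 moved outside the counting interval, 2 changed sign beyond it and 8 more could not be given. Equal depth mattered most, with 86 of 110 values keeping both, 25 moved and the 2 changes of sign. With cells thinned to 5000 UMIs, the log2 stage ratio of Ptch1 was -0.98 in Pax1/Pax9, -1.47 in Pax3 and 0.0740 in Myog cells, the last a reversal, Cdon in Myf5 over Pax3 cells at E9.5 reversed to -0.0009 and Gli1 in Pax1/Pax9 over Pax3 cells at E9.5 was 1.19. The stage ratio of Ptch1 in Pax1/Pax9 cells was -0.91 as a mean over cells and -1.30 centred on the median of all genes. A gate at 3 UMIs gave 2.19 for Ptch1 in Olig2 over Pax3/Pax7 cells. Erythroid UMIs per cell were subtracted as a setting chosen after seeing the data, which gave stage ratios of Ptch1 of -4.34 in Pax3 and -3.99 in Myog cells, 2.17 and 5.36 for Pax1/Pax9 over Pax3 cells at E9.5 and E11.5, and 2.35 for Olig2 over Pax3/Pax7 cells. The cause of these shifts was not tested. No paired analysis was possible because each stage is 1 library, and none could be left out. Depth limits the ratios that rest on under 50 UMIs.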
